A study of Mus musculus with 6 samples.

Results

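The nuclear genes of mitochondrial complex I were measured in hearts of male Mdx/Utrn dKO mice, which lack both dystrophin and utrophin and serve as a model of Duchenne muscular dystrophy. The members were all genes whose symbol starts with Nduf, without symbols ending in -ps, which gave 49 of the 50385 genes in the count table. Of these, 41 carry the name of a subunit and 8 are assembly factors named Ndufaf. Per the labels, 3 libraries came from mice gavaged with setanaxib, which blocks Nox4, an NADPH oxidase. The dose was 60 mg/kg daily over 12 weeks, and the other 3 libraries came from mice gavaged with corn oil, the vehicle. All mice were of the dKO genotype and, per the labels, 2 to 3 months old at the start, so no healthy heart enters any comparison, and the drug was given to the whole animal. The comparison asks whether RNA for the enzyme that feeds the respiratory chain differed between treated and untreated dystrophic hearts.

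Complex I passes electrons from NADH to ubiquinone and pumps protons across the inner mitochondrial membrane. Its core subunits carry the flavin, the iron-sulphur clusters and the proton pumps. The nuclear genome encodes the core subunits of the arm in the matrix, and the mitochondrial genome encodes those of the membrane arm. Accessory subunits surround the core, and assembly factors help to build the enzyme but are not part of the finished complex. The heart, which draws most of its energy from respiration, holds a large amount of it.

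No complex I gene passed the test in setanaxib hearts against vehicle hearts. With edgeR's quasi-likelihood test and Benjamini-Hochberg adjustment, 0 of 40 tested subunit genes and 0 of 8 Ndufaf genes had an adjusted p under 0.05, and DESeq2 and limma-voom also called 0 in both sets. Only 1 gene of the 20472 tested passed in edgeR, a background of 0.00488%, whereas DESeq2 called 2.43% of genes. At an unadjusted p under 0.05, edgeR held 1 subunit gene, the lower Ndufa4l2, and 0 Ndufaf genes, against 3.76% of all genes on the higher side and 4.69% on the lower side. The median log2 fold change of setanaxib over vehicle was -0.0017 for the subunit genes and -0.20 for the Ndufaf genes, beside 0.01 for all genes. The remaining member, Ndufs6b, held 7 counts in vehicle replicate 3 and 0 in the other libraries, and was not tested.

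The libraries within the setanaxib group differed from each other more than the groups did. Summed over the subunit genes, setanaxib replicates 1, 2 and 3 held 4984, 4766 and 3439 CPM (counts relative to library size, scaled with TMM factors), against 4257, 4648 and 4261 CPM in vehicle replicates 1, 2 and 3. The group means were 4396 ± 837 CPM with setanaxib and 4389 ± 225 CPM with vehicle (SD, n = 3 each). On this scale setanaxib replicates 1 and 2 lay above every vehicle library and setanaxib replicate 3 below them all. The TMM factors were 0.892, 0.961 and 1.191 with setanaxib, against 1.003, 0.949 and 1.03 with vehicle. A larger factor gives a lower CPM, so the scaling widened the gap between setanaxib replicate 3 and setanaxib replicates 1 and 2. The sums without these factors are not given. Setanaxib replicate 3 was the lowest of the 6 libraries for 37 of 40 subunit genes, where it was the lowest for 23.4% of all genes tested. Setanaxib replicate 1 was the highest for 30 of 40, against 24.2% of all genes.

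**Figure D1:**
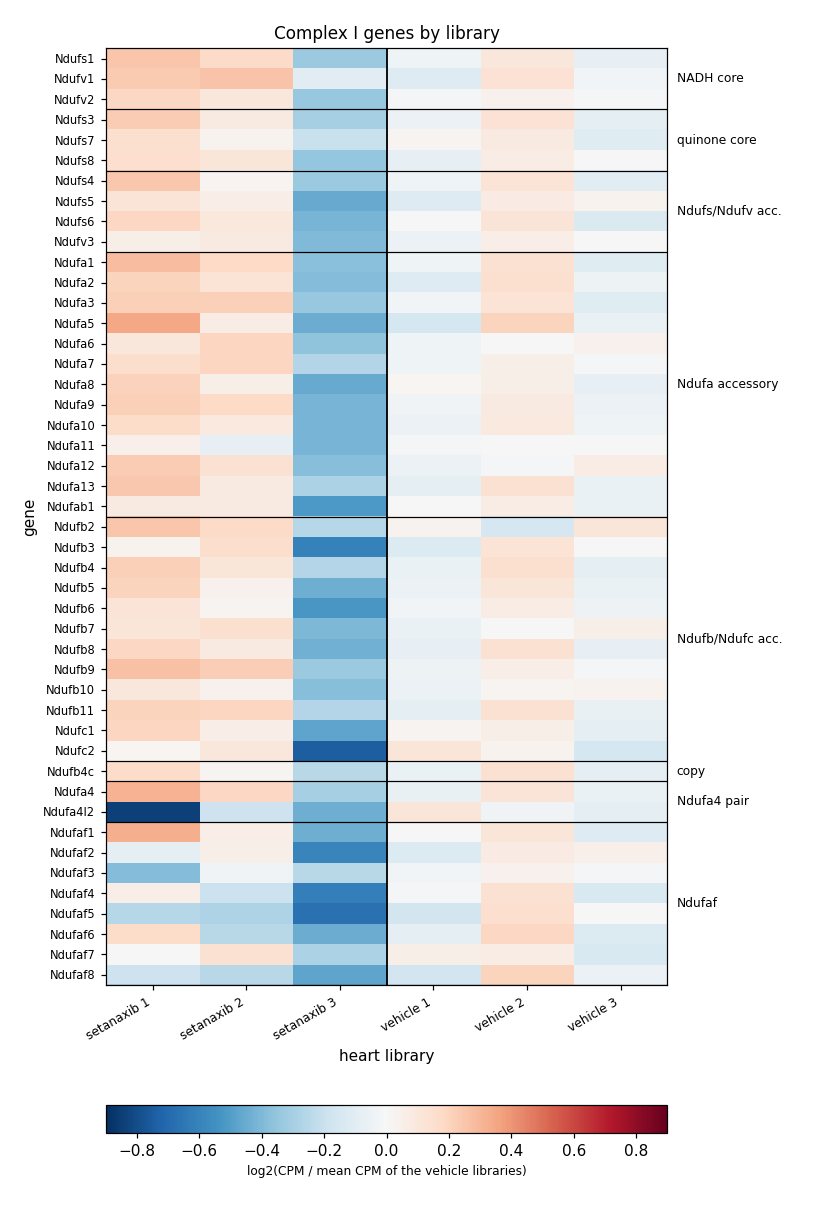
Level of complex I genes in each heart library, as log2 of CPM over the mean CPM of the 3 vehicle libraries, with genes grouped by role. Ndufa11b, with at most 0.527 CPM, is not drawn. The column of setanaxib replicate 3 is blue for nearly every gene, while the subunit rows of setanaxib replicates 1 and 2 are mostly red and the Ndufaf rows mixed.

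Setanaxib replicate 3 also stood apart outside the complex. Total counts ran from 110803307, in that library, to 142693848 with setanaxib, and from 121014814 to 154003318 with vehicle. All 12 heart muscle markers were tested, and they summed to 109720, 112030 and 79476 CPM with setanaxib, against 101680, 101440 and 104500 CPM with vehicle. Of these 12 markers, 10 were lowest in setanaxib replicate 3. The 3 tested atrial markers, such as Nppa, summed to 66.5, 108 and 2914 CPM with setanaxib, against 239, 121 and 568 CPM with vehicle. Of the 4 airway and lung markers only Scgb1a1, a secretory protein of the airway, was tested, and it stood at 0.102, 0.114 and 598 CPM with setanaxib, against 3.89, 0 and 19.6 CPM with vehicle. The 2 tested fat cell markers of 6 summed to 10.1, 9.89 and 71.7 CPM with setanaxib, against 10.3, 8.92 and 11.5 CPM with vehicle. The airway and fat markers not tested were in the count table but did not pass the low-count filter, and their values are not given. Whether atrial, airway or fat tissue had a part in the low complex I values of this library was not tested. In whole hearts, fewer cells of a type and less RNA per cell cannot be told apart.

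Set against heart muscle RNA, the subunit sum spread less among the setanaxib libraries, but not among the vehicle libraries. Per 100 CPM of the 12 heart muscle markers, the subunit genes held 4.54, 4.25 and 4.33 CPM in setanaxib replicates 1, 2 and 3, against 4.19, 4.58 and 4.08 CPM in vehicle replicates 1, 2 and 3. The means were 4.38 ± 0.15 with setanaxib and 4.28 ± 0.27 with vehicle (SD, n = 3 each). On this scale setanaxib replicate 3 lay between the other libraries of its group, and the groups overlapped. The largest parts of the marker sum were Ttn and Myh6, with vehicle means of 44950 and 17730 CPM. The ratio was not among the planned results and is given with no test.

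Without setanaxib replicate 3, 38 of 40 subunit genes were on the higher side in setanaxib hearts, where 49.5% of all genes were, and their median log2 fold change was 0.15. Leaving out either of the other setanaxib libraries gave medians on the other side of 0, -0.11 without setanaxib replicate 1 and -0.068 without setanaxib replicate 2. At an unadjusted p under 0.05 and without setanaxib replicate 3, edgeR held 8 of 40 higher, against 5.67% of all genes. Among them were Ndufs1, Ndufv1, Ndufa4, Ndufa7, Ndufa9, Ndufa12 and Ndufb9. None passed edgeR's adjusted threshold, the smallest adjusted p being 0.254 for Ndufb9, and 0.00479% of all genes did. limma-voom also called 0, with 9 subunit genes at an unadjusted p under 0.05 in either direction. Over all genes tested, 2921 of 20880 were under that p in limma-voom. DESeq2 called 2 of the 40, Ndufb9 with an adjusted p of 0.0049 and Ndufa7 with one of 0.049, against 6.67% of all genes.

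**Figure D2:**
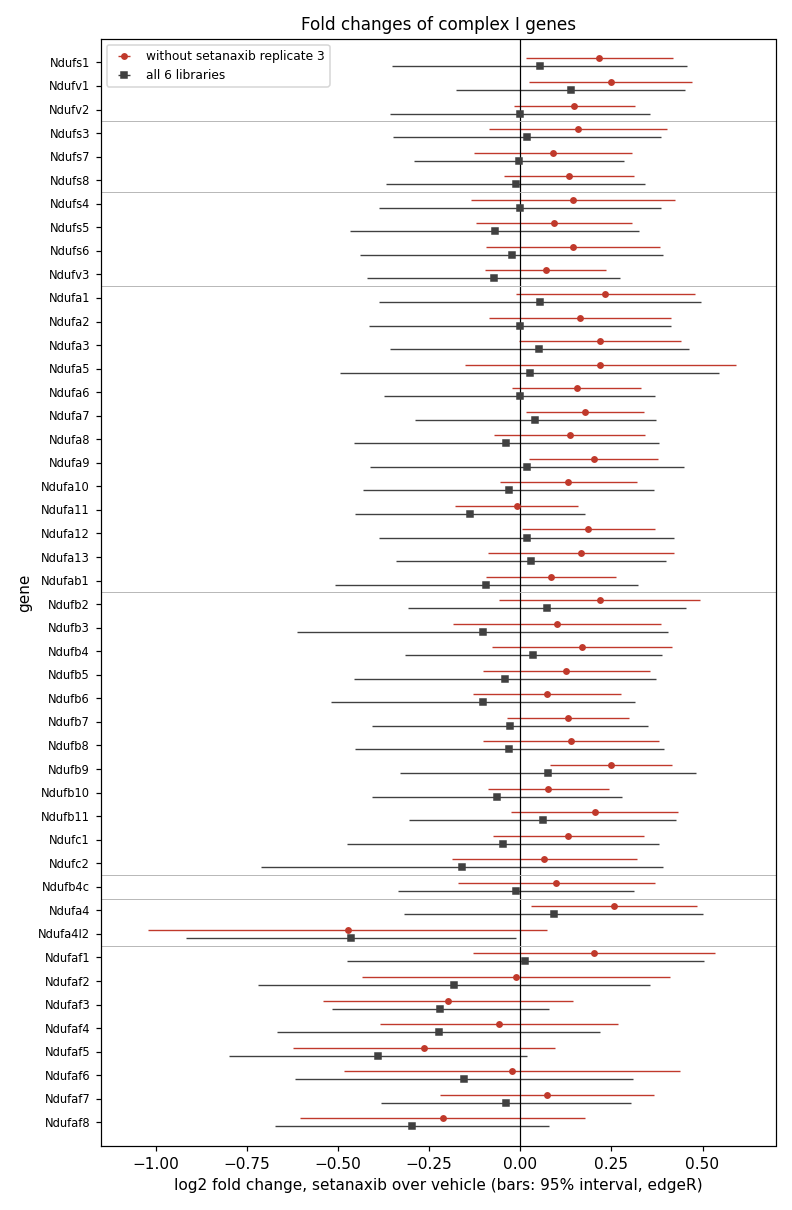
Log2 fold change of setanaxib over vehicle for complex I genes, with its 95% interval from edgeR, without setanaxib replicate 3 (red circles) and with all 6 libraries (dark squares). With all libraries the squares of the subunits lie around 0 with a median of -0.0017, and without that library nearly all red circles lie to the right of 0, with a median of 0.15.

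The 3 nuclear core subunits of the NADH-oxidising end were Ndufv1, which binds NADH and the flavin, and the iron-sulphur proteins Ndufv2 and Ndufs1. Ndufv1 stood at 260, 264 and 206 CPM with setanaxib, against 204, 241 and 217 CPM with vehicle. Its log2 fold change, 0.14 (SE 0.13, 95% interval -0.18 to 0.45, edgeR adjusted p = 0.840), was the highest of the 36 subunit genes that remain without Ndufa4, Ndufa4l2 and the gene copies. It was also the only core subunit whose lowest library was a vehicle one. Ndufs1, the largest subunit of this end, stood at 402, 382 and 269 CPM with setanaxib, against 330, 363 and 322 CPM with vehicle (log2 fold change 0.05, SE 0.17, edgeR adjusted p = 0.965). Ndufv2 stood at 112, 105 and 77.4 CPM with setanaxib, against 97.2, 101 and 96.9 CPM with vehicle, with a log2 fold change of -0.00095 (SE 0.15). In both genes setanaxib replicates 1 and 2 were above all vehicle libraries and setanaxib replicate 3 below them.

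Among the core subunits that carry electrons on to ubiquinone, log2 fold changes were -0.0032 for Ndufs7 (95% interval -0.29 to 0.28), 0.02 for Ndufs3 (95% interval -0.35 to 0.39) and -0.01 for Ndufs8 (95% interval -0.37 to 0.34). Ndufs7, which holds the last iron-sulphur cluster before ubiquinone, stood at 311, 288 and 246 CPM with setanaxib, against 288, 298 and 261 CPM with vehicle. The narrower spread of Ndufs7 gave it an SE of 0.12, where Ndufs3 had one of 0.15. Ndufs3 stood at 160, 145 and 111 CPM with setanaxib, against 132, 150 and 129 CPM with vehicle. Ndufs8, another iron-sulphur protein, stood at 90.9, 88.3 and 64.3 CPM with setanaxib, against 77.9, 85.7 and 82.1 CPM with vehicle. In all 3 the lowest library was setanaxib replicate 3, and the groups overlapped.

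Among the accessory subunits, log2 fold changes had a median of -0.05 for the 4 of the Ndufs and Ndufv series, 0.02 for the 13 of the Ndufa series and -0.04 for the 12 of the Ndufb and Ndufc series, which sit in the membrane arm. All of them were lowest in setanaxib replicate 3. Ndufa11, an accessory subunit of the membrane arm, had the smallest unadjusted p among them in edgeR (0.333). It stood at 151, 139 and 109 CPM with setanaxib, against 145, 147 and 146 CPM with vehicle, and its log2 fold change was -0.14 (SE 0.13, 95% interval -0.45 to 0.18, edgeR adjusted p = 0.843). Without setanaxib replicate 3 its value was -0.01 (SE 0.07). The 3 vehicle libraries were nearly equal, and the lower mean came from setanaxib replicate 3.

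Ndufc2, in the membrane arm, had the lowest log2 fold change of the accessory subunits. It stood at 64.0, 67.8 and 37.7 CPM with setanaxib, against 68.2, 64.6 and 56.5 CPM with vehicle (log2 fold change -0.16, SE 0.23, edgeR adjusted p = 0.904). At the other end, Ndufb9 stood at 126, 122 and 83.2 CPM with setanaxib, against 102, 109 and 104 CPM with vehicle (log2 fold change 0.08, SE 0.17, edgeR adjusted p = 0.943). Without setanaxib replicate 3 the values were 0.07 (SE 0.10) for Ndufc2 and 0.25 (SE 0.07) for Ndufb9. Setanaxib replicate 3 thus set both the sign of the first and the size of the second.

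The other accessory subunits picked by the size of p also had setanaxib replicate 3 as their lowest library. Ndufb6 stood at 34.8, 32.6 and 22.4 CPM with setanaxib, against 31.6, 33.6 and 31.1 CPM with vehicle. Ndufab1, the acyl carrier protein of mitochondria, stood at 54.1, 54.2 and 35.8 CPM with setanaxib, against 51.0, 53.5 and 49.2 CPM with vehicle. Ndufb3 stood at 15.6, 16.97 and 9.96 CPM with setanaxib, against 13.95, 16.5 and 15.1 CPM with vehicle. Their log2 fold changes were -0.10, -0.09 and -0.10, with SE of 0.17, 0.17 and 0.21. Ndufv3 stood at 133, 136 and 97.5 CPM with setanaxib, against 124, 134 and 128 CPM with vehicle. Ndufb10 stood at 210, 200 and 150 CPM with setanaxib, against 187, 198 and 199 CPM with vehicle. Ndufs5 stood at 50.7, 48.7 and 34.1 CPM with setanaxib, against 43.2, 49.2 and 47.8 CPM with vehicle. These 3 had log2 fold changes of -0.07, -0.06 and -0.07. Ndufb2 was on the higher side, with 22.6, 21.4 and 15.9 CPM with setanaxib, against 19.4, 17.1 and 20.4 CPM with vehicle (log2 fold change 0.07, SE 0.16).

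Over the 36 subunit genes without Ndufa4, Ndufa4l2 and the copies, log2 fold changes ran from -0.16 to 0.14 and the smallest edgeR adjusted p was 0.840. Their 95% intervals together reached from -0.71 to 0.55. The groups lay apart for 0 of these 36 genes in either direction, where 8.11% of all genes were free of overlap on the higher side and 9.46% on the lower side.

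A pair of genes carries subunit names but differs in function from the rest. Ndufa4 was first described as a complex I subunit and its protein is now assigned to complex IV, cytochrome c oxidase. It stood at 202, 185 and 133 CPM with setanaxib, against 155, 177 and 156 CPM with vehicle, and its log2 fold change, 0.09 (SE 0.17), had an edgeR adjusted p of 0.931. Setanaxib replicate 3 was its lowest library and setanaxib replicate 1 its highest.

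Its relative Ndufa4l2 is known as a target of the hypoxia factor HIF-1 that lowers complex I activity. It stood at 4.62, 7.28 and 6.11 CPM with setanaxib, against 8.91, 8.10 and 7.83 CPM with vehicle. The means were 6.003 ± 1.33 CPM with setanaxib and 8.28 ± 0.56 CPM with vehicle (SD, n = 3 each), and all 3 setanaxib libraries lay below all 3 vehicle libraries. Ndufa4l2 was the only tested subunit gene without overlap, 1 of 40 beside 9.46% of all genes on the lower side. The log2 fold change was -0.46 (SE 0.19, 95% interval -0.92 to -0.01), with an unadjusted p of 0.046 and an adjusted p of 0.583 in edgeR, so it did not pass. Setanaxib replicate 1, the highest library for most subunits, was the lowest for this gene, and without setanaxib replicate 3 the value was -0.47 (SE 0.22, edgeR adjusted p = 0.395). Without setanaxib replicate 1 it was -0.31. An exon of Ndufa4l2 overlaps one of Shmt2 on the other strand in the GENCODE M21 annotation, and the sources used here do not say whether counting used strand, so the 2 genes' reads may not be fully apart.

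The Ndufaf genes were on the lower side in 7 of 8 cases, and in 3 of them, Ndufaf3, Ndufaf5 and Ndufaf8, the groups did not overlap. That is 3 of 8 beside the 9.46% of all genes that lay apart on the lower side, and none of the 3 passed the test. Ndufaf5, a modifying enzyme, acts on the core subunit NDUFS7 in human cells, and Ndufaf8 is its partner there. Ndufaf3 works with Ndufaf4 on the part that binds ubiquinone. The starts of the 3 genes are shown for their promoters, with the subunit Ndufa11 beside them. Sequences are from RefSeq on GRCm38.p6, 150 bases each on the gene's strand, from 120 before the start site to 30 after it. Ndufaf5 lies at chr2:140170526-140170675 (+), Ndufaf8 at chr11:120098814-120098963 (+), Ndufaf3 at chr9:108567407-108567556 (-) and Ndufa11 at chr17:56717642-56717791 (+). Capitals mark matches to the motifs described after them.
Ndufaf5: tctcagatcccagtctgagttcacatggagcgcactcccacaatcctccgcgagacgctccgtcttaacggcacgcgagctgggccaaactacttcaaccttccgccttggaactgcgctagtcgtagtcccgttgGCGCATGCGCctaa
Ndufaf8: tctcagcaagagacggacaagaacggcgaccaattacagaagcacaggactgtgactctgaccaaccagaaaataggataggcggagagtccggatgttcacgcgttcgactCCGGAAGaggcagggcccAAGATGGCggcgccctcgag
Ndufaf3: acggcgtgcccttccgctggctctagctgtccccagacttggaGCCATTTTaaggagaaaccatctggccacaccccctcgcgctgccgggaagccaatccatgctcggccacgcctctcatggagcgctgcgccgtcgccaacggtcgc
Ndufa11: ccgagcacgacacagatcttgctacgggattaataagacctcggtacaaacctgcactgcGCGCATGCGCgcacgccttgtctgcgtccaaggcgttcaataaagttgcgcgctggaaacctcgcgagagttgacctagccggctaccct

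Short motifs of factors known to bind promoters of respiratory genes were searched on both strands, from 250 bases before to 50 after the start, in the 33 subunit genes and 7 Ndufaf genes with a RefSeq promoter. The letters AANATGGC, as bound by YY1, were found in 12 of 33 subunit promoters, 2 of 7 Ndufaf promoters (Ndufaf3 and Ndufaf8) and 6.96% of 27025 promoters of all genes. The letters GCGCATGC, as bound by NRF1, were found in 3 of 33 (Ndufa6, Ndufa8 and Ndufa11), 2 of 7 (Ndufaf4 and Ndufaf5) and 3.05% of all. In Ndufaf5 and Ndufa11 this motif matched on both strands in overlapping positions, which gives the longer run of capitals. The letters CCGGAAG, as bound by ETS factors, were found in 4 of 33, 2 of 7 (Ndufaf1 and Ndufaf8) and 9.93% of all. The letters TNAAGGTCA, as bound by the estrogen-related receptors, were found in 1 of 33, Ndufb4, in 0 of 7 and in 1.43% of all. The 3 Ndufaf genes without overlap between groups did not share 1 motif, and no binding was measured.

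Ndufaf5 stood at 5.41, 5.33 and 4.07 CPM with setanaxib, against 5.75, 7.18 and 6.46 CPM with vehicle. Its means were 4.94 ± 0.75 CPM with setanaxib and 6.46 ± 0.71 CPM with vehicle (SD, n = 3 each), and its log2 fold change was -0.39 (SE 0.17, 95% interval -0.80 to 0.02, edgeR adjusted p = 0.615). All setanaxib libraries were below all vehicle libraries, the nearest pair being setanaxib replicate 1 and vehicle replicate 1. Ndufaf8 stood at 5.90, 5.64 and 4.83 CPM with setanaxib, against 5.94, 7.70 and 6.48 CPM with vehicle (log2 fold change -0.30, SE 0.16, 95% interval -0.67 to 0.08, edgeR adjusted p = 0.680). Ndufaf3 stood at 9.62, 12.3 and 10.6 CPM with setanaxib, against 12.4, 12.95 and 12.5 CPM with vehicle (log2 fold change -0.22, SE 0.12, 95% interval -0.52 to 0.08, edgeR adjusted p = 0.699). The gaps between the groups were narrow, since the highest setanaxib library nearly reached the lowest vehicle library in both genes. Without setanaxib replicate 3 the log2 fold changes were -0.26 for Ndufaf5, -0.21 for Ndufaf8 and -0.20 for Ndufaf3. Other libraries moved the last 2 further, to -0.19 for Ndufaf8 without vehicle replicate 2 and to -0.14 for Ndufaf3 without setanaxib replicate 1. An exon of Ndufaf3 overlaps one of Impdh2 on the other strand in GENCODE M21.

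The other 5 Ndufaf genes overlapped between groups. Ndufaf4 stood at 25.1, 21.1 and 15.7 CPM with setanaxib, against 23.9, 26.5 and 21.9 CPM with vehicle (log2 fold change -0.22, SE 0.18). Ndufaf2, which stays on late intermediates, stood at 2.15, 2.36 and 1.51 CPM with setanaxib, against 2.08, 2.39 and 2.35 CPM with vehicle (log2 fold change -0.18, SE 0.22). Ndufaf6 stood at 9.99, 7.49 and 6.55 CPM with setanaxib, against 8.40, 10.2 and 8.17 CPM with vehicle (log2 fold change -0.15, SE 0.19). In these 3 genes setanaxib replicate 3 was the lowest library and vehicle replicate 2 the highest. Their log2 fold changes were -0.058, -0.011 and -0.022 without setanaxib replicate 3. Ndufaf7, a methyltransferase, stood at 12.6, 13.9 and 10.4 CPM with setanaxib, against 13.1, 13.3 and 11.5 CPM with vehicle (log2 fold change -0.04, SE 0.14). Ndufaf1, which assembles the membrane arm, stood at 17.2, 14.3 and 10.1 CPM with setanaxib, against 13.7, 14.8 and 12.7 CPM with vehicle (log2 fold change 0.01, SE 0.20). Ndufaf1 was the only Ndufaf gene on the higher side.

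As a group the Ndufaf genes summed to 88.0, 82.5 and 63.8 CPM with setanaxib, against 85.4, 94.9 and 82.04 CPM with vehicle. As a share of the subunit sum of the same library, this was 1.77%, 1.73% and 1.85% with setanaxib, against 2.00%, 2.04% and 1.93% with vehicle. The groups did not overlap in this share, with means of 1.78 ± 0.06% with setanaxib and 1.99 ± 0.06% with vehicle (SD, n = 3 each), and setanaxib replicate 3 was not the lowest library. The share was put together after the values of the genes were seen and is given with no test. Without setanaxib replicate 3 the median log2 fold change of the 8 genes was -0.04, with 2 on the higher side and 0 called by edgeR or DESeq2.

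**Figure D3:**
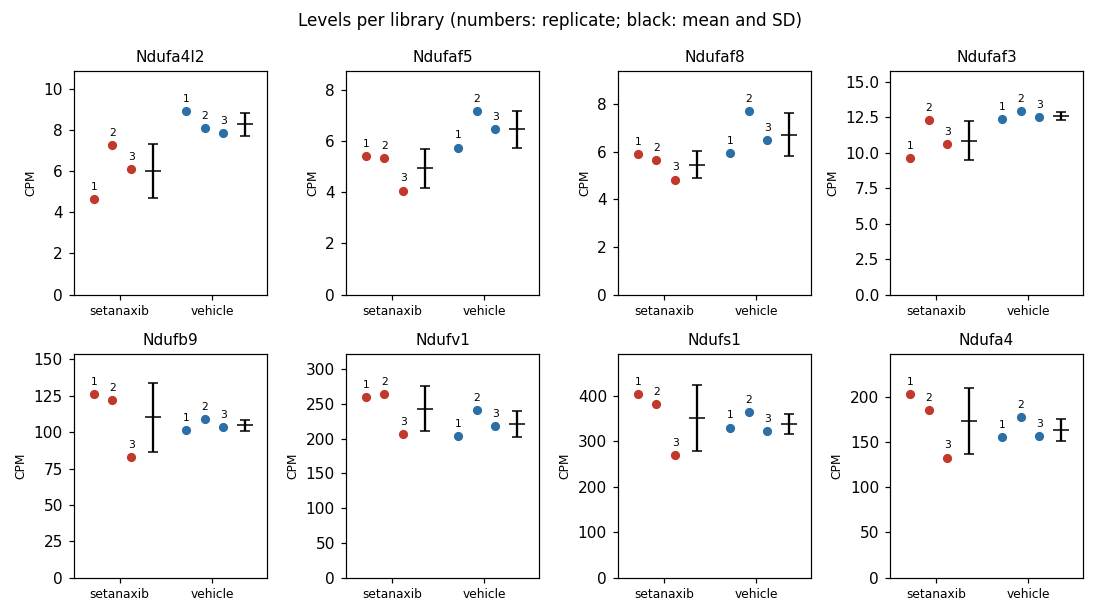
CPM of 8 complex I genes in each library, setanaxib in red on the left and vehicle in blue on the right of each panel, with replicate numbers over the points and the mean with its SD in black. For Ndufa4l2, Ndufaf5, Ndufaf8 and Ndufaf3 every setanaxib point lies below every vehicle point, and for Ndufb9, Ndufs1 and Ndufa4 setanaxib replicate 3 lies below all other points. The groups lay apart on the lower side for 1 of 40 subunit genes, 3 of 8 Ndufaf genes and 9.46% of all genes tested.

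Per kilobase of transcript, subunits and assembly factors occupied separate ranges. In CPM per kilobase of the principal transcript, the group means of the 36 subunit genes ran from 18.6 for Ndufb3 to 372 for Ndufs7 with a median of 113 with setanaxib, and from 19.9 to 373 with a median of 115 with vehicle. The 8 Ndufaf genes ran from 2.96 for Ndufaf2 to 9.55 for Ndufaf1 with a median of 7.01 with setanaxib, and from 3.36 to 9.46 with a median of 7.73 with vehicle. The most abundant assembly factor was thus below the least abundant subunit in both groups. On the same scale Ndufa4 stood at 384 with setanaxib and 360 with vehicle, while Ndufa4l2, at 6.43 with setanaxib and 8.86 with vehicle, was in the range of the assembly factors. Transcript lengths are from GENCODE M21. Where a gene had several principal transcripts, the length of the shortest was used, and the CPM of the whole gene were divided by it.

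Gene copies make some levels uncertain. The whole 390-base transcript of Ndufb4c, annotated as a processed pseudogene, is identical to part of Ndufb4. It held 29.4, 26.6 and 22.0 CPM with setanaxib, against 25.2, 28.8 and 24.7 CPM with vehicle. Its counts were between 39.7% and 42.6% of those of Ndufb4 in every library, so reads of Ndufb4 may be shared with it. Ndufa11b, a processed pseudogene with 94.8% identity to Ndufa11, had the highest log2 fold change of the subunit names, 0.22, with an SE of 1.44 at 0.527, 0 and 0.061 CPM with setanaxib, against 0.165, 0.103 and 0.235 CPM with vehicle. That value rests on the few counts of 1 library. In all, 19 of 48 tested members share exon bases with another gene in GENCODE M21.

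Of the other genes of complex I, 10 assembly factors with other names were tested, and 2 were on the higher side, 8 on the lower side and 0 passed in edgeR, 0 of them at an unadjusted p under 0.05. Their median log2 fold change was -0.05. Tmem186, which works with Ndufaf1 in human cells, stood at 13.4, 14.2 and 11.4 CPM with setanaxib, against 14.7, 17.4 and 14.1 CPM with vehicle (log2 fold change -0.24, SE 0.14, edgeR adjusted p = 0.699). Tmem126b, of the same assembly complex, stood at 11.1, 11.3 and 8.04 CPM with setanaxib, against 11.3, 11.6 and 12.0 CPM with vehicle (log2 fold change -0.20, SE 0.16). Tmem126b was the only gene of this list whose groups did not overlap, 1 of 10 beside 9.46% of all genes on the lower side. Acad9 and Ecsit, its further partners, were at 0.01 (SE 0.10) and -0.06 (SE 0.15) on the log2 scale.

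The 7 subunits encoded by the mitochondrial genome, mt-Nd1 to mt-Nd6 with mt-Nd4l, spread more than the nuclear ones. They summed to 122860, 90231 and 56497 CPM with setanaxib, against 87019, 92885 and 74553 CPM with vehicle. All 7 were highest in setanaxib replicate 1 and lowest in setanaxib replicate 3. Their median log2 fold change was 0.05 with all libraries and 0.32 without setanaxib replicate 3, and edgeR called 0 in both, with 0 and 2 at an unadjusted p under 0.05. Those 2 of 7 were on the higher side, beside 5.67% of all genes in the same fit. Because the library left out was the lowest for all 7, leaving it out by itself raises their setanaxib side. Fits without setanaxib replicate 1 or 2 are not given for the mt-Nd genes. The whole mitochondrial genome took 29.96%, 25.5% and 20.5% of counts with setanaxib, against 26.0%, 26.8% and 23.5% with vehicle.

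The nuclear genes of complexes II to V had the same low library. Of 44 tested genes, 41 were lowest in setanaxib replicate 3, their median log2 fold change was 0.05, and edgeR, DESeq2 and limma-voom called 0, with 0 at an unadjusted p under 0.05 in edgeR. Without that library 43 of 44 were on the higher side, with a median of 0.20, where 49.5% of all genes were on that side. At an unadjusted p under 0.05, edgeR then held 22 of 44 higher, beside 5.67% of all genes, and called 0. DESeq2 called 15 of 44, beside 6.67% of all genes, in a fit chosen after seeing the data. Because the library left out was the lowest for 41 of the 44, leaving it out by itself raises their setanaxib side. Fits without setanaxib replicate 1 or 2 are not given for these genes. The difference between complex I and the other complexes was not tested. Among 12 regulators of respiratory genes, 8 were on the higher side and 0 passed in edgeR. The groups lay apart for 1 of 12 on the higher side, beside 8.11% of all genes. Without setanaxib replicate 3, edgeR held 2 of 12 higher at an unadjusted p under 0.05, beside 5.67%, and called 0. DESeq2 then called 2, beside 6.67%. Ppargc1a, the PGC-1 alpha coactivator, stood at 120, 124 and 96.01 CPM with setanaxib, against 86.6, 96.9 and 97.3 CPM with vehicle (log2 fold change 0.28, SE 0.12, edgeR adjusted p = 0.622). The 2 groups overlapped through setanaxib replicate 3.

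**Figure D4:**
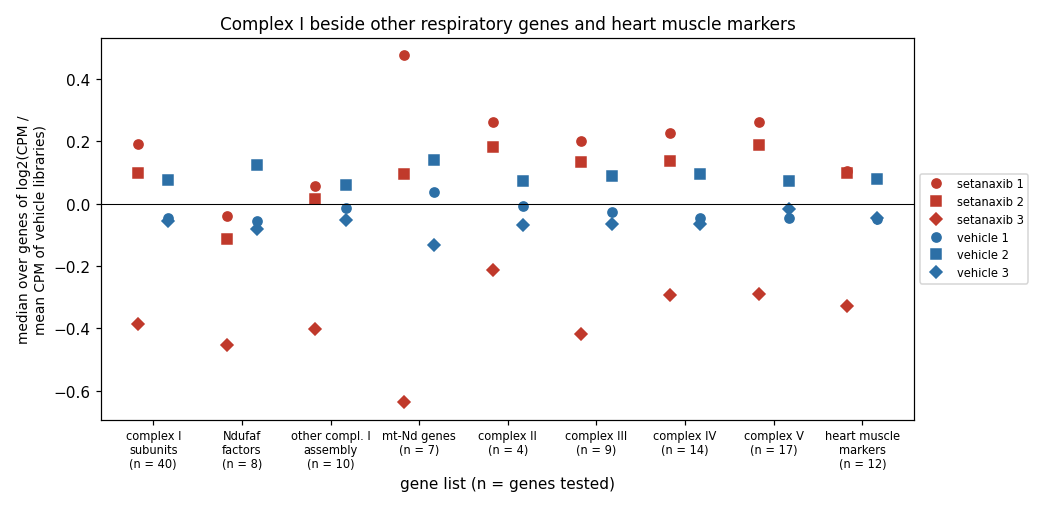
Median over the genes of each list of log2 of CPM over the mean CPM of the vehicle libraries, with setanaxib libraries in red to the left of vehicle libraries in blue. Setanaxib replicate 3 is the lowest point in every list drawn. Setanaxib replicate 1 is the highest for the subunits of complex I, the mt-Nd genes, complexes II to V and the heart muscle markers. It is not the highest for the Ndufaf genes or the other assembly factors.

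Markers of other heart cells also differed in level between the libraries of the groups. All 8 fibroblast markers were on the lower side, 5 of them at an unadjusted p under 0.05 in edgeR beside 4.69% of all genes, and summed to 624, 830 and 1055 CPM with setanaxib, against 1413, 1062 and 1415 CPM with vehicle. These 5 were Postn, Col3a1, Col1a2, Lum and Col1a1. Pdgfra, Dcn and Tcf21 overlapped between groups, with log2 fold changes of -0.26, -0.15 and -0.03. Of 8 macrophage markers, 7 were lower at an unadjusted p under 0.05, and the list summed to 197, 251 and 229 CPM with setanaxib, against 319, 400 and 309 CPM with vehicle. No marker passed edgeR's adjusted threshold, DESeq2 called 3 fibroblast and 4 macrophage markers beside 2.43% of all genes, and limma-voom called 0. The 6 endothelial markers, 5 of them on the lower side, summed to 521, 653 and 616 CPM with setanaxib, against 689, 751 and 661 CPM with vehicle. Kdr, a receptor of endothelial cells, was the only one without overlap, 1 of 6 beside 9.46% of all genes on the lower side. Kdr stood at 84.0, 177 and 125 CPM with setanaxib, against 196, 220 and 184 CPM with vehicle. The 6 smooth muscle and pericyte markers, 5 of them on the lower side, summed to 637, 657 and 383 CPM with setanaxib, against 688, 562 and 693 CPM with vehicle. Kcnj8, a potassium channel of pericytes, was the only one of these without overlap, again 1 of 6 beside 9.46% of all genes. Kcnj8 stood at 8.49, 19.0 and 15.3 CPM with setanaxib, against 21.9, 21.4 and 19.9 CPM with vehicle. From the lowest to the highest library, the order of Kcnj8 was that of Ndufa4l2. All other markers of the smooth muscle and pericyte list had a different lowest library. Rgs5, for example, stood at 420.1, 419.7 and 266.9 CPM with setanaxib, against 430, 391.2 and 432.5 CPM with vehicle. How many of all genes had the order of Ndufa4l2 was not counted. In edgeR 0 markers of both lists had an unadjusted p under 0.05, and DESeq2 and limma-voom called 0. The part of these cells in the Ndufa4l2 and Ndufaf values was not tested.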

How the data were processed

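The authors deposited estimated counts per gene, whole numbers for 6 heart libraries with no scaling between libraries, so no rounding was needed. Per the submitters' processing notes, the tools were STAR 2.5.4b, featureCounts 2.0.1, FastQC 0.11.9 and DESeq2 1.42.0, with genome GRCm39. Per the file headers, names have the form StringTie's count script writes, so the values were handled like expected counts; the sources used here give no strand setting. Genes were kept by filterByExpr (minimum count 10), scaled with TMM factors and tested with edgeR 4.0.16's quasi-likelihood test in R 4.3.3, two-sided, adjusted by Benjamini-Hochberg over all genes tested, threshold 0.05. Alternatives were RLE factors, DESeq2 1.42.0, limma 3.58.1 (voom), other filters, mitochondrial genome genes left out, and each library left out. The design had assumed plain counts, and its count tests were kept. The script was tested on simulated data.

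Named genes were the nuclear core subunits, Ndufa4, Ndufa4l2, all Ndufaf genes, the 10 other subunits with the smallest p, and the tested subunit genes with the highest and lowest fold change. A result that the rule would name is not reported here. Values of Ndufb4c, and of list genes with small p or known partners, were added after they were seen. Members and lists were chosen with earlier results of these data known. Replicate numbers follow accession order. The titles give each library its own number without saying what it numbers, and no 2 libraries matched within sampling noise (smallest chi-square per degree of freedom 40), so p-values measure spread between these libraries, which the labels do not tie to separate animals in words. The lowest estimated count behind a tested member other than Ndufa11b was 199, for Ndufaf2 in setanaxib replicate 3.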

Additional observations from a re-analysis of the deposited data

How the results depend on the processing

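Under every alternative run, edgeR and limma-voom called 0 of the 40 subunit genes and 0 of the 8 Ndufaf genes. With 1 library left out, the median log2 fold change ran from -0.11 to 0.15 for the subunit genes and from -0.29 to -0.040 for the Ndufaf genes, and the log2 ratio of the subunit sum from -0.10 to 0.16. In each case the highest value came without setanaxib replicate 3 and the lowest without setanaxib replicate 1. DESeq2 without setanaxib replicate 3, and limma-voom without it, were chosen after seeing the data. DESeq2 without it called 2 subunit genes. Subunit genes at an unadjusted p under 0.05 numbered 1 with all libraries, 0 with a filter of 1 CPM in 3 libraries, 0 without Ndufa4, Ndufa4l2 and copies, between 0 and 8 with 1 library left out, 14 in DESeq2 and 9 in limma-voom without setanaxib replicate 3. Among all genes tested, edgeR held 1731 of 20472 at that p, and 1507 of 14568 with that filter. With 1 library left out it held from 990 of 20899 to 2834 of 20880. Without setanaxib replicate 3, DESeq2 held 3809 and limma-voom 2921 of 20880. Over all genes, the 1 call of edgeR became 494 in DESeq2, 1392 in DESeq2 without setanaxib replicate 3, 0 in limma-voom with or without that library, and 0 to 1 with 1 library left out, being 0 without any one of the vehicle replicates.

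Signs near 0 depended on the libraries. With 1 library left out, log2 fold changes ran from -2.43 to 0.81 for Ndufa11b, -0.039 to 0.26 for Ndufa4, -0.19 to 0.083 for Ndufab1, -0.17 to 0.20 for Ndufaf1, -0.14 to 0.074 for Ndufaf7, -0.16 to 0.077 for Ndufb10, -0.030 to 0.22 for Ndufb2, -0.25 to 0.10 for Ndufb3, -0.23 to 0.074 for Ndufb6, -0.035 to 0.25 for Ndufb9, -0.31 to 0.066 for Ndufc2, -0.062 to 0.22 for Ndufs1, -0.10 to 0.16 for Ndufs3, -0.18 to 0.093 for Ndufs5, -0.087 to 0.091 for Ndufs7, -0.11 to 0.13 for Ndufs8, -0.11 to 0.15 for Ndufv2 and -0.16 to 0.070 for Ndufv3. Without setanaxib replicate 3, the sign turned in DESeq2 and limma-voom to 0.086 and 0.084 for Ndufab1, 0.076 and 0.076 for Ndufaf7, 0.079 and 0.076 for Ndufb10, 0.10 and 0.10 for Ndufb3, 0.076 and 0.072 for Ndufb6, 0.069 and 0.072 for Ndufc2, 0.096 and 0.093 for Ndufs5, 0.093 and 0.091 for Ndufs7, 0.14 and 0.13 for Ndufs8, 0.15 and 0.15 for Ndufv2, and 0.072 and 0.070 for Ndufv3, and in limma-voom to -1.89 for Ndufa11b. With all libraries, limma-voom turned Ndufa11b to -1.69 and Ndufaf1 to -0.020, and the 1 CPM filter turned Ndufs7 to 0.0093 and Ndufv2 to 0.011; the cause was not tested. Ndufa4l2, Ndufaf3, Ndufaf5, Ndufaf8, Ndufv1 and Ndufa11 kept their direction under all of these. With 1 library left out, Ndufv1 ran from 0.075 to 0.25 and Ndufa11 from -0.24 to -0.010. Without changing sign, the values with 1 library left out ran from -0.32 to -0.011 for Ndufaf2, -0.39 to -0.058 for Ndufaf4 and -0.35 to -0.022 for Ndufaf6. No paired analysis was possible because the labels give the libraries no replicate numbers shared between groups.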
